A study of Mus musculus with 16 samples.

Results

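The 10 genes described here encode enzymes that remove hydrogen peroxide or superoxide without selenium, or that repair such enzymes. The list holds the peroxiredoxins *Prdx1*, *Prdx2*, *Prdx3*, *Prdx4*, *Prdx5* and *Prdx6*, the peroxiredoxin repair enzyme sulfiredoxin (*Srxn1*), catalase (*Cat*) and the superoxide dismutases *Sod1* and *Sod2*. These genes were taken by gene symbol from 18209 genes with an identifier, and each symbol had 1 row. All 10 passed the filter on low values, which kept 15781 genes. Their expression was described in the livers of mice of 4 genotypes at 20 days of age, with 4 mice per genotype.

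All 4 genotypes were homozygous for a floxed allele of *Trsp*, the gene of the selenocysteine tRNA. The control livers were *Trsp* fl/fl and carried no other allele. The knockout livers were *Trsp* fl/fl::*Alb*Cre, in which a Cre recombinase driven by the albumin promoter deletes *Trsp*. The study describes this knockout as hepatocyte-specific, and which cells lost *Trsp* was not measured here. The KEAP1 mutant livers were *Keap1* C226S&C613S homo::*Trsp* fl/fl, whose KEAP1 protein carries serine in place of cysteine at both positions in every cell. The compound mutant livers joined both changes, with *Keap1* C226S&C613S homo on top of *Trsp* fl/fl::*Alb*Cre. The label of every library gives a male mouse. The study compared these genotypes to ask whether the substituted cysteines of KEAP1 take part in the response of the liver to a loss of selenoproteins.

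Peroxiredoxins reduce hydrogen peroxide with a reactive cysteine, and most of them are recharged by thioredoxin, which is in turn recharged by thioredoxin reductase, a selenoprotein. PRDX1 and PRDX2 work mainly in the cytosol, PRDX3 in mitochondria, PRDX4 in the endoplasmic reticulum and PRDX5 in several compartments, while PRDX6 draws on glutathione. Sulfiredoxin rescues peroxiredoxins whose cysteine has been oxidised too far. Catalase breaks down hydrogen peroxide in peroxisomes, which are abundant in hepatocytes. SOD1 in the cytosol and SOD2 in mitochondria convert superoxide to hydrogen peroxide. The transcription factor NRF2, which KEAP1 holds in check, drives *Srxn1*, *Prdx1* and many detoxification genes through antioxidant response elements in their control regions.

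The promoter of *Srxn1* is shown because this gene held the largest differences among the members. The antioxidant response element core was searched on both strands as TGACNNNGC and, after the sequences were seen, also as TGAGNNNGC, in RefSeq promoters of 300 bases that run from 250 bases before to 50 bases after the transcription start site. The first core was in 12.4% of 32851 promoters and the other in 17.6%. A promoter was held for 9 of the 10 genes. *Srxn1*, *Prdx1* and *Sod1* had a match to at least 1 of the cores, which is 3 of 9 against 27.8% of all promoters. Taken singly, the first core was in 3 of these 9 promoters and the other in 2. The 250 bases before the *Srxn1* start site (GRCm38.p6, chr2:152105274-152105523, plus strand) lie upstream of the first basic exon of *Srxn1* in the GENCODE vM21 annotation, and only their last few bases fall within the annotated gene. The 2 matches in these bases, both to TGAGNNNGC and none to TGACNNNGC, are in capitals:
*Srxn1*: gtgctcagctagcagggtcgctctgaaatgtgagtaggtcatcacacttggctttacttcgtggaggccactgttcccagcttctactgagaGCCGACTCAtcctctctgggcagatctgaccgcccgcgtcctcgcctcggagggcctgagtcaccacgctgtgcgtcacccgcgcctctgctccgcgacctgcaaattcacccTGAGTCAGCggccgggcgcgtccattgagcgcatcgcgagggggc

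The upstream *Srxn1* match ran antisense from -158 to -150 and the downstream one sense from -45 to -37, counted from the start site. Another *Srxn1* match, to TGACNNNGC, was antisense from 29 to 37 after the start site. The other upstream matches are printed with 10 bases on either side and the match in capitals, as *Prdx1* carried a TGACTCAGC at -133 to -125 and *Sod1* a TGACCACGC at -56 to -48, both antisense. *Prdx1* is at GRCm38.p6 chr4:116685456-116685484 and *Sod1* at chr16:90220696-90220724, both on the plus strand. Both windows are 29 bases long and lie outside annotated genes:
*Prdx1*: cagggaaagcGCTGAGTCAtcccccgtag
*Sod1*: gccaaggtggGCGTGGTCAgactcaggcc

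*Cat*, *Sod2*, *Prdx2*, *Prdx3*, *Prdx4* and *Prdx5* had neither core in these 300 bases. A match is a string of letters and was not tested as a binding site here.

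Recovered reads ranged from 11386758 to 19164128 per library. The libraries were not shown by the labels to come from separate litters or batches. The library labelled compound mutant replicate 1 stood apart before any comparison: it held 28798 reads of *Xist*, an RNA of female cells, against 22 to 50 in the other 15, and 2 reads of 4 Y-linked genes against 1830 to 3066. It went against its male label, and most differences of named genes that use it are given with and without it. The means of single markers, the differences of *Prdx2* and the SDs within genotypes are given with it. The summed level of 5 hepatocyte markers found in the table, of 6 listed, was 1500000 to 1800000 normalized reads in the controls, 1420000 to 1810000 in the knockout, 1720000 to 2070000 in the KEAP1 mutant and 811000 to 1610000 in the compound mutant livers, or 1120000 to 1610000 without the library that stood apart. None of these markers was at 0 in every library, and albumin alone took 4.86% to 10.7% of the reads. *Alb* made up most of the sum, with 614500 of 811000 in compound mutant replicate 1. Over all 4 libraries, mean *Alb* was 1349000 in control and 949600 in compound mutant livers, and *Ttr* 60160 and 33750. *Apoa1* (95900 and 94160), *Cps1* (114700 and 119000) and *Serpina1c* (53520 and 54050) had similar means in these 2 genotypes. The compound mutant means include replicate 1, where these 3 genes were at 57770, 81590 and 33240. Against KEAP1 mutant livers all 5 markers were lower in compound mutant livers, by log2 differences of -0.81 to -0.22, and 0 had an adjusted p under 0.05 (limma). In whole liver, fewer hepatocytes, less RNA per hepatocyte and lower levels of single markers cannot be told apart.

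Per kilobase of the longest principal transcript, *Cat* and *Sod1* were the most abundant of the 10 genes in control livers, at 10200 ± 556 and 9100 ± 1070 normalized reads per kilobase (SD, n = 4). Their library ranges, 9660 to 10900 and 8020 to 10100, overlapped. *Prdx1* followed at 4250 ± 506, or at 11100 on its shorter principal transcript, so its place in the order depends on the transcript. *Prdx4*, *Prdx5*, *Prdx3* and *Prdx6* had means of 1110, 1050, 983 and 887 with overlapping libraries. *Prdx2* at 504 ± 59.0, *Sod2* at 361 ± 11.1 and *Srxn1* at 158 ± 22.8 closed the order, each apart from its neighbours in every control library. The gap between *Prdx2* and *Prdx6* also depends on the transcript. On its shortest principal transcript *Prdx2* had a control mean of 691, beside 720 in the lowest *Prdx6* control library. *Srxn1* was the least abundant member in controls. In the knockout livers its range per kilobase, 382 to 449, lay within that of *Sod2*, 318 to 455.

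**Figure D1:**
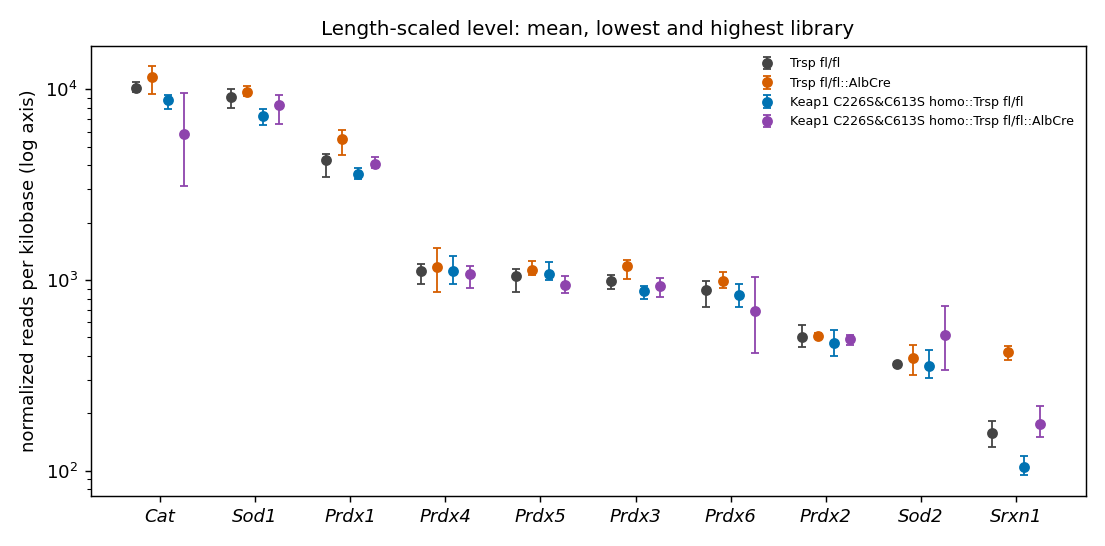
Length-scaled level of each gene, as normalized reads per kilobase on a log axis, with the mean of 4 libraries as a point and the lowest and highest library as the bar, coloured by genotype. *Srxn1* moved from 158 in the controls to 421 in the knockout livers, while *Cat* ranged from 3110 to 9570 among the compound mutant livers.

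*Srxn1* was the member that rose in the knockout livers and the only one of the 10 called there at the thresholds of the study, an adjusted p under 0.01 and a log2 change of more than 1 in size (0.215% of all genes tested). Its normalized reads were 516, 411, 373 and 476 in the control livers and 1221, 1075, 1264 and 1178 in the knockout livers. Every knockout library lay above every control. The log2 fold change was 1.42 (SE 0.13), or 2.67-fold, with an adjusted p of 3e-05 (limma, Benjamini-Hochberg over all genes tested).

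In the KEAP1 mutant livers *Srxn1* was at 266, 274, 292 and 334 normalized reads, below every control library. The log2 difference of -0.59 (SE 0.13) had an unadjusted limma p of 0.00028 but an adjusted p of 0.12, so it did not pass the test. In the compound mutant livers *Srxn1* was at 613, 472, 421 and 470. These values overlapped the controls, and the log2 difference was 0.15 (95% interval -0.12 to 0.42), or 0.04 without the library that stood apart.

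With mutant KEAP1, *Srxn1* also rose between livers without and with *Alb*Cre, by 0.74 on the log2 scale (SE 0.13, 1.67-fold, adjusted p 0.012), and the libraries of these genotypes did not overlap. It no longer passed an adjusted p under 0.05 in the limma fit of these genotypes alone, at 0.054 with the same difference, or without KEAP1 mutant replicate 1 or 2 (0.054 and 0.055). Without the library whose *Xist* reads stood apart the rise was 0.64 with an adjusted p of 0.037. Between the Cre-positive genotypes, *Srxn1* fell with mutant KEAP1 by 1.27 on the log2 scale (SE 0.13, adjusted p 3.8e-05), a call that 0.57% of all genes shared, and by 1.37 without that library. The effects of *Alb*Cre with mutant and with wild-type KEAP1 differed by -0.67 (SE 0.18). This difference had an unadjusted limma p of 0.0019 and an adjusted p of 0.27, which did not pass, and without the library that stood apart it was -0.78 (adjusted p 0.21). The genotypes thus stood in the order KEAP1 mutant, control, compound mutant and knockout, with means of 292, 444, 494 and 1185 normalized reads, and the middle pair were not separated by their spread.

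**Figure D2:**
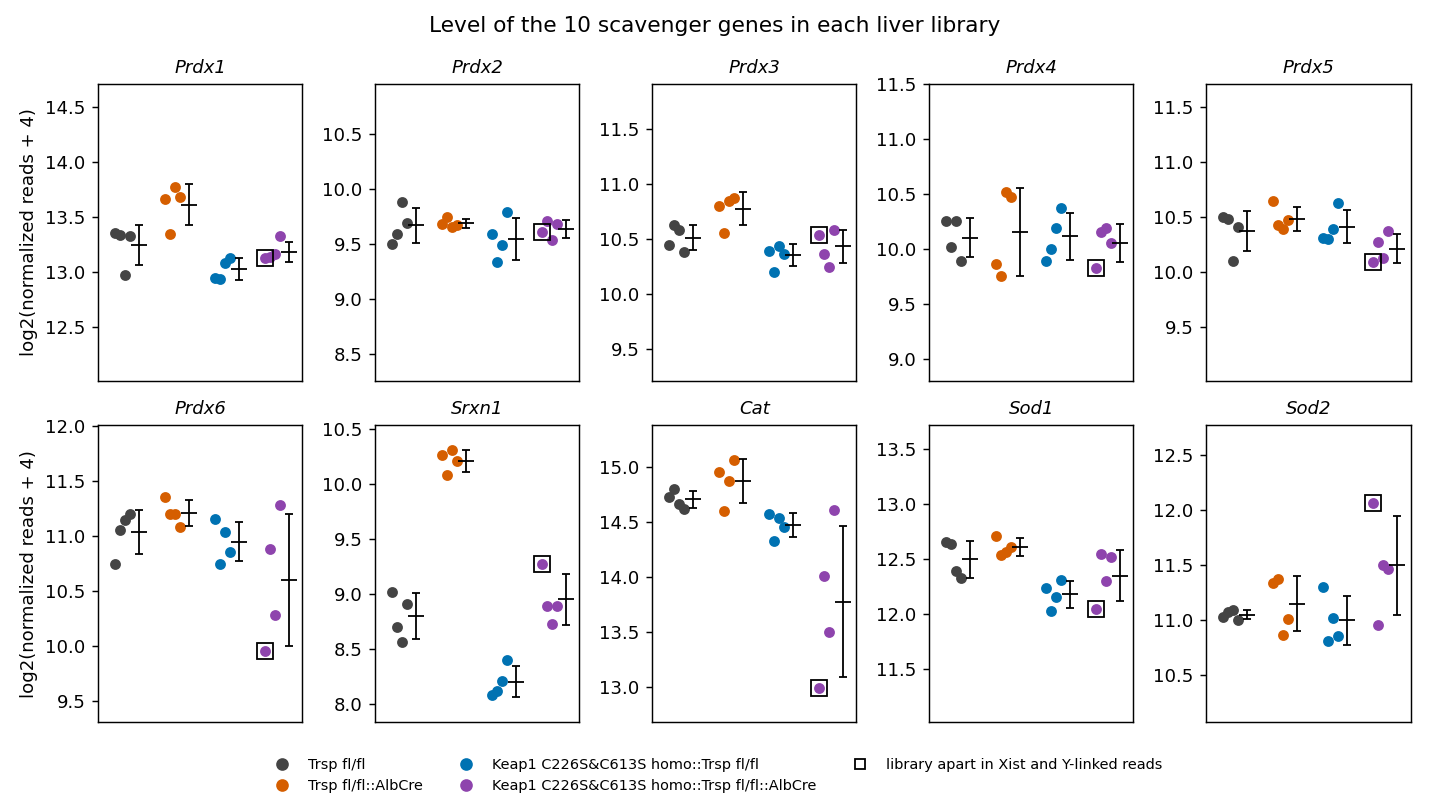
Level of each gene as log2 of normalized reads plus 4, with 1 point per library and the mean and SD of 4 libraries beside them, and the same axis span in each panel. *Srxn1* separates the knockout libraries from the rest, and in *Cat* and *Prdx6* the compound mutant libraries spread from 12.99 to 14.61 and from 9.96 to 11.28, with the boxed library, which stood apart in its *Xist* and Y-linked reads, lowest in both.

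Among the peroxiredoxins none passed an adjusted p under 0.05 in any comparison of all 16 libraries, which between 0.0887% and 2.07% of all genes did. *Prdx1*, the abundant cytosolic enzyme, came closest. It was at 10470, 10290, 8011 and 10190 normalized reads in control livers, 12900, 10370, 13980 and 13090 in knockout livers, 7846, 7792, 8681 and 8926 in KEAP1 mutant livers and 8916, 8943, 9136 and 10190 in compound mutant livers. The knockout libraries overlapped the controls by 1 library, and the log2 difference was 0.37 (SE 0.12, unadjusted limma p 0.0079, adjusted p 0.24). All compound mutant libraries lay below all knockout libraries, with a log2 difference of -0.43 (SE 0.12, adjusted p 0.079), or -0.41 (adjusted p 0.17) without the library that stood apart. That difference passed, with adjusted p-values of 0.046 and 0.037, when knockout replicate 2 or compound mutant replicate 4 was left out.

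*Prdx3*, the mitochondrial enzyme, had the same order of genotypes at the extremes, with means of 1453 in control, 1745 in knockout, 1300 in KEAP1 mutant and 1379 in compound mutant livers. The knockout libraries held 1784, 1499, 1829 and 1870 reads and the controls 1383, 1570, 1527 and 1332, so that knockout replicate 2 fell among the controls. The log2 difference was 0.26 (SE 0.10, adjusted p 0.33), and that of compound mutant against knockout livers was -0.34 (SE 0.10, adjusted p 0.095). The latter was -0.37 (adjusted p 0.14) without the library that stood apart, and its adjusted p was 0.040 without compound mutant replicate 4.

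*Prdx6*, which uses glutathione, varied most among the peroxiredoxins. Its compound mutant libraries held 992, 1886, 1238 and 2491 normalized reads, while the other 12 libraries held 1714 to 2623. The log2 difference from the knockout was -0.61 (SE 0.22, adjusted p 0.16) and -0.39 without the library that stood apart. Without compound mutant replicate 4 it passed, with an adjusted p of 0.014. In the same comparison *Prdx5* differed by -0.27 (SE 0.11, adjusted p 0.22), with 4 compound mutant libraries at 1084 to 1324 below 4 knockout libraries at 1342 to 1588. Without the library that stood apart it was -0.22 (adjusted p 0.43).

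*Prdx2* and *Prdx4* moved least. *Prdx2*, which is also a major protein of red blood cells, spanned 0.54 log2 units over all 16 libraries and its differences between genotypes lay between -0.11 and 0.08. Its intervals in the comparisons of genotypes with each other reached at most 0.33 in either direction. The summed level of 16 erythroid markers, of 17 listed and none at 0 throughout, was 34400 to 65000 normalized reads in control and 13200 to 25800 in KEAP1 mutant livers, a difference with an exact two-sided permutation p of 0.0286, the smallest that 4 against 4 allows. It was 15000 to 35400 in knockout livers and 15700 to 96900 in compound mutant livers, the highest being the library that stood apart, and without it 15700 to 24900. The part of these cells in any difference of *Prdx2* was not tested. *Prdx4* held 856 to 1450 reads over the series, and its knockout libraries fell at 924, 856, 1450 and 1414, a spread wider than any difference between its genotype means.

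*Cat* lay between 20660 and 34420 normalized reads in 3 genotypes and scattered in the fourth. It was at 27180, 28580, 26040 and 25240 normalized reads in control, 31930, 24750, 30160 and 34420 in knockout and 24490, 20660, 23820 and 22580 in KEAP1 mutant livers. The compound mutant libraries held 8130, 16460, 11590 and 25010. Replicates 1, 2 and 3 lay below every library of the other genotypes, and replicate 4 lay among them.

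*Cat* fell in compound mutant against knockout livers by 1.10 on the log2 scale (SE 0.25, adjusted p 0.031), to 0.47 of the knockout level, although the libraries overlapped. Without the library that stood apart the difference was -0.84 (SE 0.20, adjusted p 0.077) and did not pass. It also did not pass in a fit of these genotypes alone (adjusted p 0.17), with the replicate number as a block (0.055), without compound mutant replicate 3 (0.13), or without knockout replicate 1, 3 or 4 (0.073, 0.076 and 0.092). Against control livers the difference was -0.93 (SE 0.25, adjusted p 0.11), with every compound mutant library below every control. Against KEAP1 mutant livers it was -0.70 (SE 0.25, adjusted p 0.22). Without the library that stood apart, replicate 1, these were -0.67 and -0.44, with adjusted p-values of 0.23 and 0.47. Without compound mutant replicate 4 they were -1.21 and -0.98, with adjusted p-values of 0.0058 and 0.022.

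In the compound mutant livers, *Cat* and *Prdx6* followed the order of the summed hepatocyte markers, which were 811000, 1460000, 1120000 and 1610000 normalized reads in replicates 1 to 4. Singly, *Alb*, *Ttr* and *Serpina1c* had this order, and *Cps1* and *Apoa1* did not. *Cps1* was at 81590, 119000, 79640 and 195700, lowest in replicate 3. *Apoa1* was at 57770, 120500, 94340 and 104000, highest in replicate 2. The marker sum of these livers was below that of the KEAP1 mutant livers, with an exact two-sided permutation p of 0.0286, the smallest possible, and the p against knockout livers was 0.257. The sum of 6 neutrophil markers, all in the table and none at 0 throughout, was 689 to 2290 in compound mutant and 222 to 407 in knockout livers (exact permutation p 0.0286). It was 492 to 1780 in KEAP1 mutant and 247 to 1310 in control livers, which overlapped the compound mutant livers. The exact permutation p of compound against KEAP1 mutant livers was 0.314. Against knockout livers the other lists were also compared. The sums of the macrophage, endothelial, stellate and cholangiocyte lists had exact permutation p-values of 0.771, 0.686, 0.457 and 0.629 between compound mutant and knockout livers. Of 35 such tests, 7 lists in 5 comparisons, none kept an adjusted p under 0.05 (smallest 0.334). With 0.0286 as the smallest possible p, a few lists that differ could not pass this adjustment, so it decides little. The part of hepatocyte or neutrophil RNA in the values of *Cat* and *Prdx6* was not tested.

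**Figure D3:**
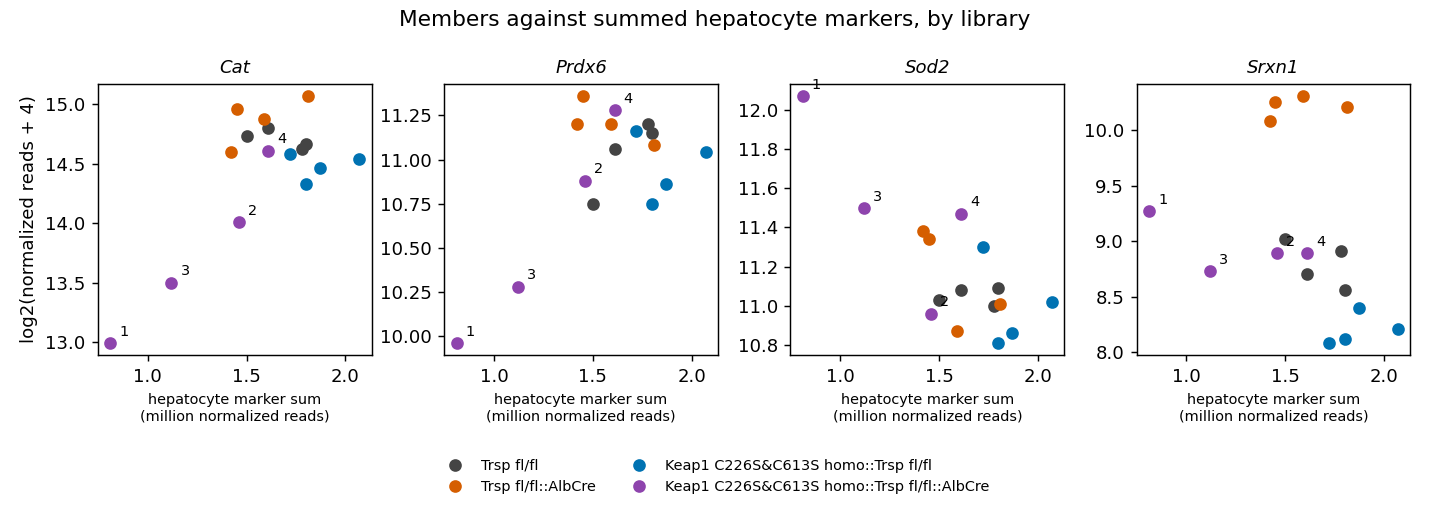
Level of 4 genes, as log2 of normalized reads plus 4, against the summed level of the hepatocyte markers in units of 1e+06 normalized reads, with 1 point per library coloured by genotype and the compound mutant replicates numbered. *Cat* and *Prdx6* are lowest in replicates 1 and 3, where the marker sum was 811000 and 1120000 reads, and *Srxn1* in these replicates lies among the control values or above them.

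The superoxide dismutases did not pass the test in any comparison of all 16 libraries. *Sod1* was lower in KEAP1 mutant livers, at 4834, 4184, 4566 and 5066 normalized reads, than in control livers, at 6453, 6394, 5353 and 5140. The libraries did not overlap, and the log2 difference was -0.32 (SE 0.12, unadjusted limma p 0.018, adjusted p 0.43). The knockout livers held 5943 to 6697 and the compound mutant livers 4235 to 5977.

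*Sod2* had its highest mean in the compound mutant livers. Its control libraries lay close together, from 2039 to 2176 normalized reads. The compound mutant libraries held 4294, 1988, 2897 and 2825, the highest being the library that stood apart. The log2 difference from KEAP1 mutant livers was 0.50 (SE 0.19, adjusted p 0.24), and 0.31 without that library. From control livers it was 0.45 (SE 0.19, adjusted p 0.32), and 0.26 without it. From knockout livers it was 0.35 (SE 0.19, adjusted p 0.34), and 0.16 without it.

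**Figure D4:**
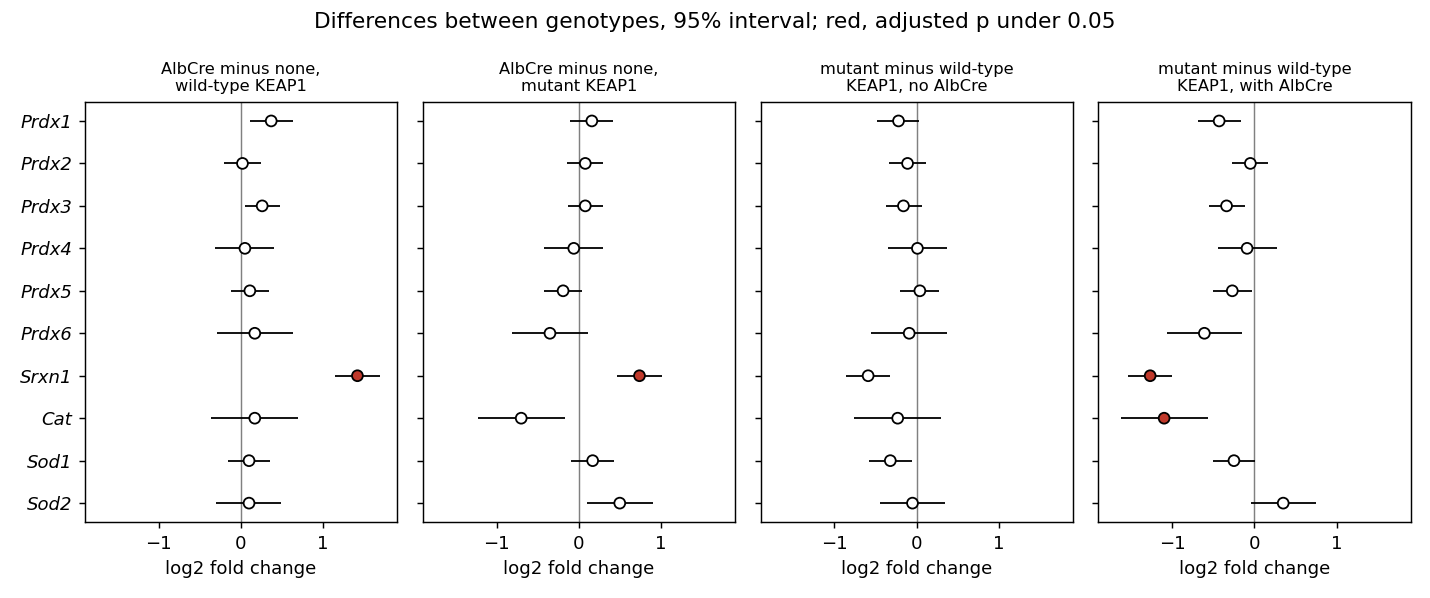
Log2 fold change of each gene in 4 comparisons, with the 95% interval from the limma fit of all genes and filled points where the adjusted p was under 0.05. The 4 filled points are *Srxn1* at 1.42, 0.74 and -1.27 and *Cat* at -1.10.

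The calls on the 10 genes were read against the same calls over all 15781 genes. The comparisons share genotypes and are not independent of each other. In knockout against control livers 1 of 10 members was called (0.215% of all genes) and the same 1 had an adjusted p under 0.05 (0.558%). There, 3 had an unadjusted p under 0.05 (11%) and 1 had libraries that did not overlap (6.01%). All 10 differences were above 0, with a median of 0.14 against -0.01 over all genes, but under quantile normalization 3 of them, those of *Prdx2*, *Prdx4* and *Sod1*, were below 0 and the median was 0.04.

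With mutant KEAP1, in livers with and without *Alb*Cre, 0 members were called (0.171%), 1 had an adjusted p under 0.05 (0.798%), 3 an unadjusted one (13.6%) and 1 did not overlap (7.69%). In KEAP1 mutant against control livers 0 were called (0.0127%), 0 had an adjusted p under 0.05 (0.0887%), 2 an unadjusted one (9.07%), and 3, *Srxn1*, *Cat* and *Sod1*, lay below the controls in every library (6.23%). The *Cat* difference there was -0.23 (SE 0.25, adjusted p 0.82).

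Between the Cre-positive genotypes 1 member was called (0.57%), 2 had an adjusted p under 0.05 (2.07%), 6 an unadjusted one (17.6%) and 3 did not overlap (8.61%). The median was -0.30 against 0.01 over all genes, with 9 of 10 below 0. Scaling to library totals raised the median of all genes to 0.13 in this comparison and left 7 members below 0, and quantile normalization left 7. Between compound mutant and control livers 0 were called (0.133%), 0 had an adjusted p under 0.05 (0.653%), 2 an unadjusted one (12.8%) and 1 did not overlap (6.23%). For the difference between the effects of *Alb*Cre, 0 were called (0.057%), 0 had an adjusted p under 0.05 (0.0951%) and 2, *Srxn1* and *Cat*, an unadjusted one (10.8%). The *Cat* effects differed by -0.87 (SE 0.35, adjusted p 0.43), or by -0.61 (SE 0.28, adjusted p 0.61) without the library that stood apart. Leaving out that library changed 1 of the counts at an adjusted p under 0.05, from 2 to 1 in compound mutant against knockout livers, and none of the numbers called. limma voom on the recovered reads gave the same number of members called in all 6 comparisons.

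Some enzymes that recharge the peroxiredoxins passed the test where no peroxiredoxin did. Of 11 thioredoxin, thioredoxin reductase, sestrin and related genes, 2 rose and 1 fell at an adjusted p under 0.05 in knockout against control livers. *Gstp1*, a glutathione transferase that recharges PRDX6, rose by 2.07 (SE 0.20, adjusted p 5.9e-05) on the log2 scale, and its close copy *Gstp2*, whose reads may be shared with it, by 2.18. *Txnrd2*, the mitochondrial thioredoxin reductase and a selenoprotein, fell by 0.69 (SE 0.12, adjusted p 0.013), and the median of the list was 0.11. In compound mutant against knockout livers 3 of 11 fell, namely *Gstp1* by 2.08, *Gstp2* by 2.29 and *Txn1*, the cytosolic thioredoxin, by 0.67 (SE 0.14, adjusted p 0.021), and none rose. The median there was -0.45. Without the library that stood apart these differences were -2.07, -2.54 and -0.69, and 3 of 11 still fell. *Txnrd2* also changed with *Alb*Cre under mutant KEAP1, by -0.85 (adjusted p 0.0033), or by -0.89 without that library, as the 1 gene of the list that passed. In compound mutant against control livers *Txnrd1*, *Txnrd2* and *Txnrd3* fell, by 0.70, 0.73 and 1.07, with adjusted p-values of 0.041, 0.012 and 0.015. Without the library that stood apart these differences were -0.72, -0.77 and -0.93, with adjusted p-values of 0.099, 0.029 and 0.06, so that *Txnrd2* alone passed.

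Of 6 glutathione peroxidases, 5 passed the filter. *Gpx1*, the selenoprotein that shares hydrogen peroxide with catalase and the peroxiredoxins as its substrate, changed with *Alb*Cre by -2.11 (SE 0.21, adjusted p 6.2e-05) with wild-type KEAP1 and by -1.84 (adjusted p 0.00043) with mutant KEAP1, or by -1.81 without the library that stood apart. *Gpx4*, which reduces lipid peroxides, fell in KEAP1 mutant against control livers by 0.60 (SE 0.10, adjusted p 0.023). None of the 4 partners of the superoxide dismutases and none of the 13 measured peroxisomal oxidases and import factors, of 15 listed, had an adjusted p under 0.05 in the 6 comparisons. In compound mutant against knockout livers the differences of these 13 peroxisomal genes lay between -0.63 and -0.02 with a median of -0.25, beside -1.10 for *Cat*. With compound mutant replicate 1 left out they lay between -0.48 and 0.11, beside -0.84 for *Cat*. In compound mutant against KEAP1 mutant livers 11 of the 13 were lower, between -1.07 and 0.34 with a median of -0.41, beside -0.70 for *Cat*. With that library left out the median was -0.37, beside -0.44 for *Cat*, so a fall like that of *Cat* was shared there.

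Of 24 tested targets and regulators of NRF2, of 25 listed, 12 rose and 0 fell at an adjusted p under 0.05 in knockout against control livers, and the median was 0.99 on the log2 scale. There *Nqo1*, a quinone reductase, rose by 2.27, and *Ugdh*, which makes the sugar acid used for glucuronidation, by 2.27. In compound mutant against knockout livers 14 fell and 0 rose, with a median of -1.05, and *Nqo1* fell by 2.96. With compound mutant replicate 1 left out 13 fell, and *Nqo1* fell by 3.03. In KEAP1 mutant against control livers 3 fell, among them *Nqo1* with a change of -1.82 (adjusted p 0.0015), and 0 rose. With mutant KEAP1, 6 rose with *Alb*Cre and 0 fell, and 4 rose without that library. *Srxn1* is not in this list.

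The genes with patterns most like *Srxn1* over the 16 libraries, by Pearson correlation of log2 values among all genes tested, were *Ugdh* (0.959), *Nqo1* (0.949), *Gsta1* (0.949), *Fth1* (0.949) and *Gm3776* (0.943). *Prdx1* was most like *Psmb5* (0.964), *Ftl1* (0.923) and *Akr1a1* (0.906). *Cat* was most like *Nipsnap1* (0.969), *Gsta3* (0.961) and *Hibadh* (0.958), and *Prdx6* like *Mettl7a1* (0.969), *Ak3* (0.964) and *Aco1* (0.959). The highest value of the other 6 members lay between 0.864 for *Prdx2* and 0.915 for *Sod1*. The libraries share genotypes and scaling, and these correlations are a description. All of them include the library that stood apart and were not computed without it.

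Within genotypes *Cat* and *Prdx6* had pooled SDs of 0.37 and 0.33 log2 units, larger than in 75.0% and 78.9% of the genes of like level. Most of this came from the compound mutant livers, with SDs of 0.69 and 0.60. In the other genotypes the SDs were 0.08 to 0.20 for *Cat* and 0.12 to 0.20 for *Prdx6*. *Prdx1*, at 0.15, was among the steadiest of its level, with 5.8% of 103 genes of like level below it.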

How the data were processed

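Livers of 16 mice, 4 per genotype, were sequenced as rRNA-depleted RNA. The authors quantified transcripts with Salmon against GENCODE mouse version 30 and deposited log2 values from the iDEP platform. Tested on the table, each deposited log2 value equals log2 of reads divided by a size factor plus 4, since 100% of low values gave whole reads (tolerance 0.02). Of 18578 rows, 369 without a gene identifier were left out. These held 0.274% to 0.627% of the reads. The sources name TPM, and the unit found was log2, so limma was run on the deposited values.

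Genes with a normalized count of at least 10 in 4 libraries entered 1 limma fit (limma 3.58.1, R 4.3.3; lmFit, contrasts, eBayes with trend) with a mean per genotype, and p-values were adjusted by Benjamini-Hochberg over 15781 genes. Fold changes are on the log2(value + 4) scale. The fit was tested on simulated counts. Every member had at least 286 reads in each library, so precision rests mainly on the differences between mice, which is what the p-values measure. Marker sums were compared by exact permutation (scipy 1.17.1). Per-kilobase levels used principal transcripts of GENCODE vM21, and other tables used Python 3.11.15. The named genes are all members, and of the lists those with an adjusted p under 0.05, at most 4 per list and comparison by adjusted p, with *Nqo1* and *Ugdh* given for the NRF2 list. The members and lists were chosen with earlier results of these data known. The alternatives were other constants, filters, scalings, tests and thresholds, a replicate block, a fit of the compared genotypes alone and each library left out. The lists without the library that stood apart were added after the data were seen. The *Trsp* deletion itself was not measured here.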

Additional observations from a re-analysis of the deposited data

Results flagged for a closer look

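Of 40 groups of 4 libraries (10 genes in 4 genotypes), 1 had a library far from the others by Dixon's criterion, which chance alone gives in about 1 group of 20. *Prdx1* in control replicate 3 was at 12.97 on the log2 scale, against 13.32 to 13.35 in the other control libraries.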

How the results depend on the processing

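The number of members called was the same under every other constant, filter, scaling, test and prior tried, in the fit of the compared genotypes alone and with the replicate block. An adjusted p under 0.05 with no fold limit moved it from 0 to 1 in compound mutant against KEAP1 mutant livers and from 1 to 2 in compound mutant against knockout livers. Leaving out 1 library gave 1 to 2 in the latter and 0 to 1 in compound mutant against control livers, the higher counts without compound mutant replicate 4, where *Cat* was added. The replicate numbers did not pair the libraries: 4 of 24 same-numbered pairs had correlated deviations over 0.1 (range -0.315 to 0.31). With the replicate block *Cat* no longer had an adjusted p under 0.05 in compound mutant against knockout livers (0.055), and no other member moved across that threshold.

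Of 600 member values under 10 other settings, 3 lost an adjusted p under 0.05, 0 gained one and 17 changed sign, none of them past the threshold, leaving out 2 values that crossed 0 by less than 0.005. Under quantile normalization these were, for knockout against control, *Prdx2* -0.01, *Prdx4* -0.01 and *Sod1* -0.03, for KEAP1 mutant against control *Prdx4* -0.01, for compound mutant against knockout *Prdx2* 0.02 and *Sod1* 0.01, against control *Prdx1* 0.19, and for the difference of effects *Prdx1* 0.16 and *Prdx4* 0.01. Under library totals they were *Prdx4* 0.07 against KEAP1 mutant, *Prdx2* 0.07 and *Prdx4* 0.04 against knockout, *Prdx1* 0.07, *Prdx2* 0.10, *Prdx3* 0.05 and *Prdx4* 0.08 against control, and *Prdx4* 0.03 for the difference of effects. Of 960 values with 1 library left out, 7 lost and 6 gained the threshold, and 20 changed sign, leaving out 5 that crossed 0 by less than 0.005. The ranges of these 11 were, for *Prdx2*, -0.03 to 0.10 (knockout against control), -0.09 to 0.04 (compound mutant against control) and -0.01 to 0.14 (difference of effects), for *Prdx4*, -0.07 to 0.18, -0.12 to 0.03 and -0.24 to 0.01 in the same order, -0.13 to 0.03 (compound against KEAP1 mutant), -0.22 to 0.03 (compound mutant against knockout) and -0.07 to 0.09 (KEAP1 mutant against control), and in this last comparison *Prdx5* -0.05 to 0.08 and *Sod2* -0.15 to 0.01. The cause was not tested. Over all genes, leaving out 1 library also moved the number called. Without compound mutant replicate 3 and without replicate 4 it became 44 and 171 (from 90) against knockout, 4 and 63 (from 21) against control and 9 and 37 (from 27) against KEAP1 mutant livers. For the difference of effects it became 3 without compound mutant replicate 2 and 12 without KEAP1 mutant replicate 4 (from 9), and in KEAP1 mutant against control livers 1 to 5 (from 2), the lowest without control replicate 2 or KEAP1 mutant replicate 3 and the highest without KEAP1 mutant replicate 4.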
